A study of Coturnix japonica with 54 samples.

Results

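The cytosolic ribosomal protein genes of the Japanese quail pituitary gland were followed across a simulated annual cycle of day length. Members were all genes whose symbol has the form of a small-subunit protein (RPS and a number, or RPSA) or a large-subunit protein (RPL and a number, or RPLP0, RPLP1 and RPLP2), and the rule used no measured value. It found 75 of the 16448 genes in the table, 30 of the small and 45 of the large subunit. Together they held 102658 of the 1277347 counts of all birds, or 8.04%.

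Ribosomal proteins are the protein part of the cytosolic ribosome, the particle that translates messenger RNA. The small subunit reads the message, the large subunit joins amino acids, and the acidic stalk of the large subunit recruits the translation factors. Cells need the proteins in nearly equal amounts, and in vertebrates their mRNAs carry a 5′ terminal oligopyrimidine tract through which growth signals control their translation. In an endocrine gland they serve all cell types, so in whole glands fewer cells of a type and less RNA per cell cannot be told apart.

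All 54 birds were males of 1 species (Coturnix japonica) that shared a start at 16 h of light per day, and each gave 1 pituitary library made by Oxford Nanopore direct cDNA sequencing of polyadenylated RNA. Day length was lowered in steps of 2 h from 16 h to 8 h and then raised back to 16 h, with 2 weeks at each step and 6 birds sampled per step. The groups 16La, 14La, 12La and 10La are the autumn-like decline, 8L is the shortest day, and 10Lv, 12Lv, 14Lv and 16Lv are the spring-like increase. Because the birds passed through the steps in sequence, time in the study and photoperiod cannot be told apart. Age and strain were not used here.

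Libraries were shallow and uneven. Totals, taken as the sum over genes of the largest transcript count, ranged from 2812 to 77709 with a median of 20420, and were lower in the spring arm (16342 ± 11283, SD, n = 24) than in the autumn arm (31850 ± 16695, SD, n = 24). Fewer than 2000 genes were detected in 9 libraries. Of these 7 came from the bird with the highest number of its photoperiod, and 2 genes took 47.4% to 68.0% of the counts in those 7. The pituitary label was checked against 11 endocrine genes in the table, all of which had counts. Red blood cell and mitochondrial-genome symbols on the lists used were not in the table, so these genes were not analysed here. Levels below are CPM, counts scaled to an equal library total. They are not divided by transcript length, and levels of different members are not compared.

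The members' share of the library was similar across the cycle, and its groups overlapped at every photoperiod. At 16La it was 8.11% ± 2.33 (SD, n = 6, as for each group), followed by 7.41% ± 1.81 for 14La, 7.10% ± 1.36 for 12La and 7.77% ± 2.71 for 10La. At 8L it was 8.78% ± 3.22. On the return it was 8.26% ± 2.63 for 10Lv and 8.34% ± 2.60 for 12Lv. The last photoperiods, 14Lv and 16Lv, had 7.88% ± 2.82 and 8.41% ± 3.83. The means thus lay between 7.10% and 8.78%, closer together than birds of a single photoperiod. The medians lay between 7.15% at 14Lv and 7.90% at 12Lv. Small-subunit genes took 47.4% to 50.5% of the members' counts in the group means, so the balance of the subunits was also similar.

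The spread within photoperiods was not spread evenly over birds. When the 6 birds of a photoperiod were placed in the order of their bird numbers, the fifth bird had the highest share in 8 of the 9 photoperiods. This pattern was chosen after its values were seen, and the values that follow are a description with no test. The fifth bird stood at 12.1% at 16La (95% Wilson interval 11.7 to 12.6), where the other 5 birds lay between 5.58% and 9.06%. At 14La it stood at 9.89% (9.59 to 10.2) against 4.47% to 8.38%, and at 10La at 12.6% (12.2 to 13.1) against 4.83% to 8.40%. In these autumn photoperiods the fifth bird lay above all others.

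At 8L the fifth bird stood at 15.2% (14.6 to 15.7) against 6.33% to 8.67%. In the spring arm it stood at 13.2% (12.5 to 13.8) against 6.19% to 9.08% at 10Lv, and at 11.8% (11.5 to 12.1) against 5.09% to 11.0% at 12Lv. It was 13.5% (13.1 to 13.9) against 5.79% to 7.48% at 14Lv, and 15.8% (15.3 to 16.3) against 5.30% to 8.88% at 16Lv. The exception was 12La, where the fifth bird had 8.22% (7.94 to 8.52) and came second to replicate 4 with 8.37% (8.18 to 8.57). The intervals cover counting error only.

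**Figure D1:**
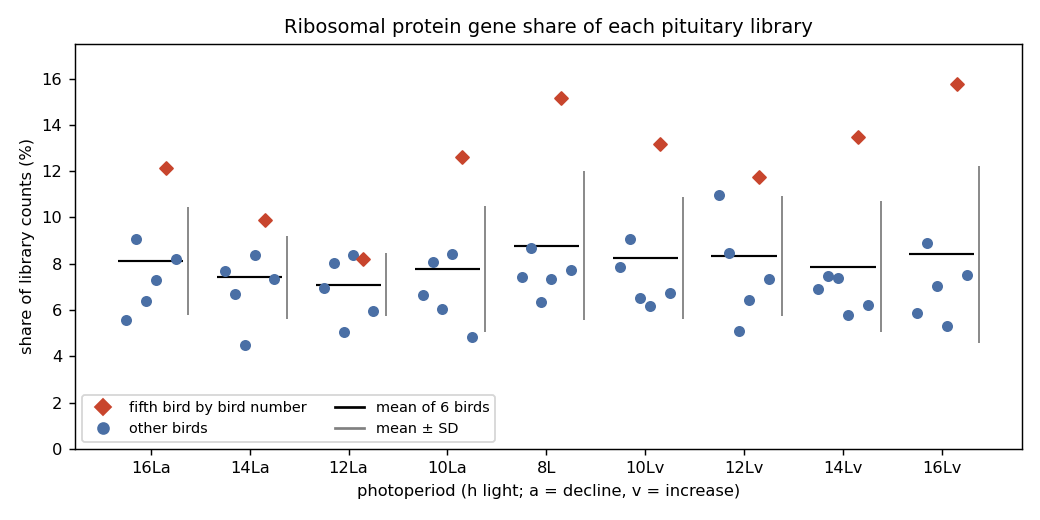
Share of each library's counts taken by the 75 members (vertical axis, %), by photoperiod; each symbol is 1 bird, placed in the order of bird numbers, with the mean of 6 birds as a black line and the SD as a grey line. The fifth bird (diamond) is the highest in 8 of 9 photoperiods, and the other birds stay between 4.47% and 11.0%.

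Over the 9 photoperiods the fifth bird had a share of 12.5% ± 2.37 (SD, n = 9), against 7.11% ± 1.31 (SD, n = 45) in the other birds. The other places in the order, from the lowest bird number to the highest, had means of 7.32%, 8.27%, 6.04%, 7.06% and 6.88% (n = 9 each). These shares depend on the total used. They were also taken without the 2 genes with the most counts in the total. Then the bird with the highest number exceeded the bird before it at 12La and 12Lv. At 12La replicate 6 had 16.8% and replicate 5 12.1%, and at 12Lv they had 19.1% and 17.4%. Replicate 2 at 12La, with 12.6%, also lay above replicate 5. At 8L and the remaining photoperiods the bird with the highest number lay below the bird before it, at 8L with 20.4% against 21.2%. On this total the bird with the highest number lay above every bird placed before the fifth, at each photoperiod. The birds with the highest number had 14.1% to 20.4%, the fifth birds 12.1% to 21.9% and earlier birds 6.37% to 15.6%. A high share was thus not particular to the fifth birds on this total. The order of bird numbers and the order of deposition differed only at 16Lv, where the fifth bird was deposited as replicate 2. Only that photoperiod can tell these orders apart. The fifth libraries varied in depth. Their totals ranged from 11089 to 45196 and they had 2995 to 6480 genes detected. At 8L the fifth library had the lowest total of its photoperiod, 15584 against 16427 to 24821 in the other birds. At 12Lv it had the highest, 45196 against 4825 to 25046. At each remaining photoperiod its total lay within the range of the other birds. Whether depth had a part in the share of the fifth birds was not tested. The labels used here give no flow cell or barcode per bird, and what the fifth birds shared was not tested. Without them the group means lay between 6.76% at 14Lv and 7.65% at 12Lv.

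Within the set, the fifth birds were high in some members and not in others. Over the 675 pairs of a member and a photoperiod, the fifth bird was the highest of the 6 in 344 (50.96%), against 16.7% of 12474 pairs for the other 1386 genes tested. The corresponding shares of member pairs for the other places were 11.7%, 15.4%, 2.96%, 13.9% and 5.04%, in order. The fifth place was chosen on the members' own share, so a higher percentage for members there is partly built in. The pairs also share libraries and are not independent. By photoperiod the count of members highest in the fifth bird ran from 11 at 12La to 55 at 14Lv. In 5 members the fifth bird was highest at all 9 photoperiods, and in 5 at none.
Among the members highest at all 9 were RPL37, RPS3A, RPLP1 and RPS21.

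RPL37 encodes a large-subunit protein with a zinc finger. Its level in the fifth birds was 4846 ± 1327 CPM (SD, n = 9), against 1497 ± 711 (SD, n = 45) in the others. At 8L the fifth bird had 7508 where the other 5 ran from 990 to 2083 with a median of 1571, and at 12La, the least separated photoperiod for the share, it had 3184 against 795 to 2281. The closest approach was at 12Lv, with 5200 in the fifth bird and 4352 in the next.

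RPS3A, a small-subunit protein that contacts translation initiation factors, had 1243 to 13679 CPM over all birds. The fifth bird had 7486 against 2065 to 4332 at 16La, 12256 against 2237 to 6270 at 8L, and 13679 against 2056 to 5099 at 16Lv. The ranges did not touch at any photoperiod. RPLP1, a stalk protein, stood at 5908 ± 1880 (SD, n = 9) in the fifth birds and 2179 ± 981 (SD, n = 45) in the others, and its closest pair was 5096 against 4940 at 14Lv.

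The members highest in the fifth bird at no photoperiod were RPL9, RPS10, RPL24, RPL6 and RPL22. RPL9 had 1060 ± 254 CPM in the fifth birds (SD, n = 9) and 918 ± 393 in the others (SD, n = 45), and at 8L the fifth bird had 1283 within the range of 731 to 1704 of the others. RPS10 had 754 ± 109 in the fifth birds and 671 ± 263 in the others. For RPL24 the order was the other way, with 589 ± 172 and 633 ± 264, and at 16Lv the fifth bird had 389, below the 696 to 1067 of the others. For these 5 genes the fifth bird lay within the range of the others at each photoperiod, except below it for RPL24 at 12Lv and 16Lv and for RPL6 at 14La.

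**Figure D2:**
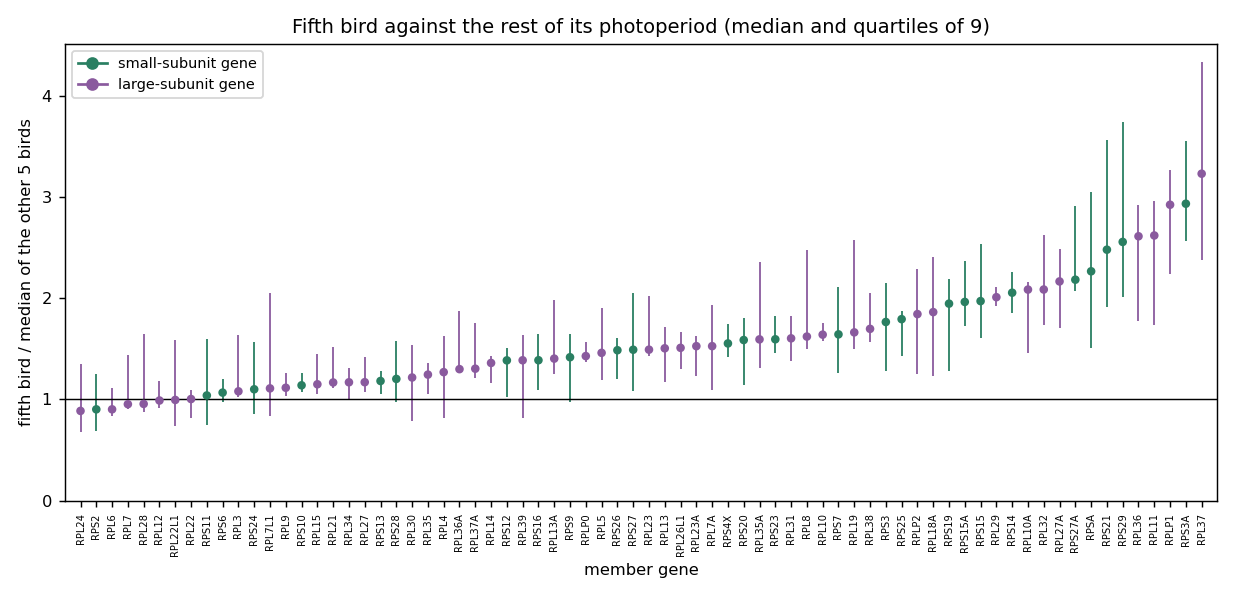
Level of each of 72 tested members in the fifth bird divided by the median of the other 5 birds of the photoperiod (vertical axis, ratio); points are the median of the 9 photoperiods and lines run between the quartiles. The members form a gradual series from RPL24, RPS2 and RPL6 at the low end to RPLP1, RPS3A and RPL37 at the high end, and both subunits are found along it.

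The order of the members was similar in separate birds. For each member the log2 ratio of the fifth bird to the pooled others was averaged over the 4 autumn and over the 4 spring photoperiods, which share no bird. Across the 74 members tested the ratios correlated with a Pearson's r of 0.82 and a Spearman's rho of 0.81, given without a p because members share libraries and depth. The 10 members with the highest autumn ratios, among them RPL32, RPL27A, RPS15A, RPL29, RPS29, RPS21, RPLP1, RPS3A and RPL37, had spring ratios from 1.09 to 1.91 and a median of 1.48. At 8L, which entered neither average, their ratios ran from 1.27 to 2.44. The 10 lowest in autumn had a median spring ratio of 0.16, with 6 of 10 above 0. Over the 74 members the median was 0.39 in autumn and 0.61 in spring. High ratios in both arms and at 8L are partly built in, because the fifth place was chosen on the members' share throughout. Ratios of birds at other places were not computed, so the correlation has no reference beside it.

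**Figure D3:**
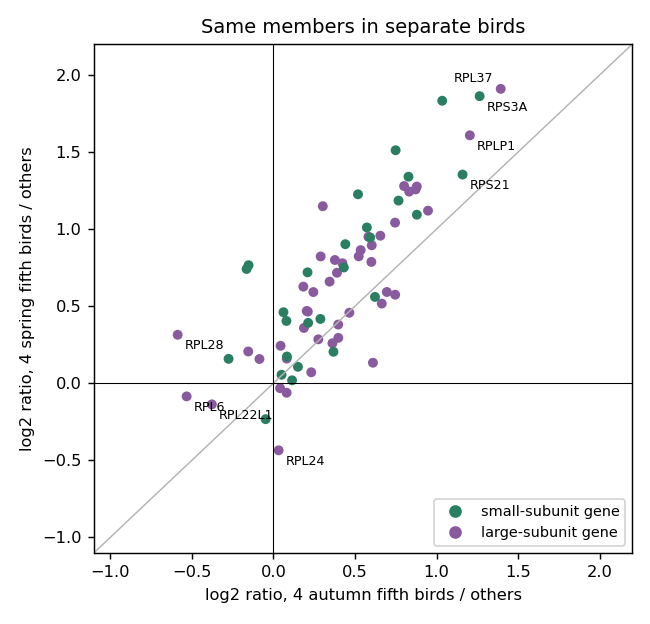
Log2 ratio of the fifth bird to the pooled other birds for 72 tested members, averaged over 4 autumn photoperiods (horizontal) and 4 spring photoperiods (vertical); each point is 1 gene and the grey line marks equal values. RPL37, RPS3A and RPLP1 lie high on both axes, and RPL6 and RPL22L1 lie below 0 on both.

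The size of the difference depends on the scaling, and the place of the members relative to other genes less so. In the fitted log2 difference between the fifth and the other birds the median member lay at 0.51 and the median of all 1460 tested genes at -0.09 with TMM scaling. With RLE scaling they lay at 0.07 and -0.50. The median member thus stood 0.60 and 0.57 above the median gene, and 71 and 70 of 74 members lay above it. Because the fifth place was chosen on the members' share, this place above the median gene is partly built in.

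Genes around the ribosome were read in the same birds. The 5 measured ribosome partners outside the rule, among them RACK1, a small-subunit scaffold, summed to 4397 ± 1039 CPM in the fifth birds and 3096 ± 787 in the others. The 40 translation factors summed to 14162 ± 1500 and 11429 ± 2270. The 73 mitochondrial ribosomal proteins, which serve the separate ribosome of mitochondria, summed to 4323 ± 825 and 3303 ± 925. The 30 ribosome biogenesis genes summed to 1167 ± 211 and 1040 ± 460, and the 11 genes for control of ribosomal protein mRNA translation to 180.1 ± 128 and 223 ± 157. All of these are means and SDs over 9 and 45 birds, and the ranges of the groups overlapped in each case. By gene the picture was mixed. The median fitted log2 difference was 0.11 for the 5 partners, 0.33 for 18 mitochondrial ribosomal proteins and 0.02 for 30 translation factors, of which 13 lay below 0, EEF2 at -0.64 among them. It was -0.28 for the 2 biogenesis genes tested.

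Marker levels of the cell types in the gland were read beside this. The 11 endocrine genes summed to 35170 to 103220 CPM in the fifth birds and 7081 to 152560 in the others. The 6 genes of the glia and neurohypophysis list had medians of 0 in both sets. They reached 5543 in the fifth bird at 12La and 1266 in the others. At 12La the fifth bird did not have the highest share. The 8 matrix genes ranged from 513 to 1550 in the fifth birds and 0 to 3454 in the others, the 6 endothelial genes from 0 to 193 and 0 to 319, and the 3 folliculostellate genes from 0 to 199 and 0 to 356. The 6 immune genes ranged from 0 to 199 and 0 to 243, and the 5 cycling genes from 0 to 133 and 0 to 125. The ranges of each list overlapped, and their part in the members' levels was not tested.

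**Figure D4:**
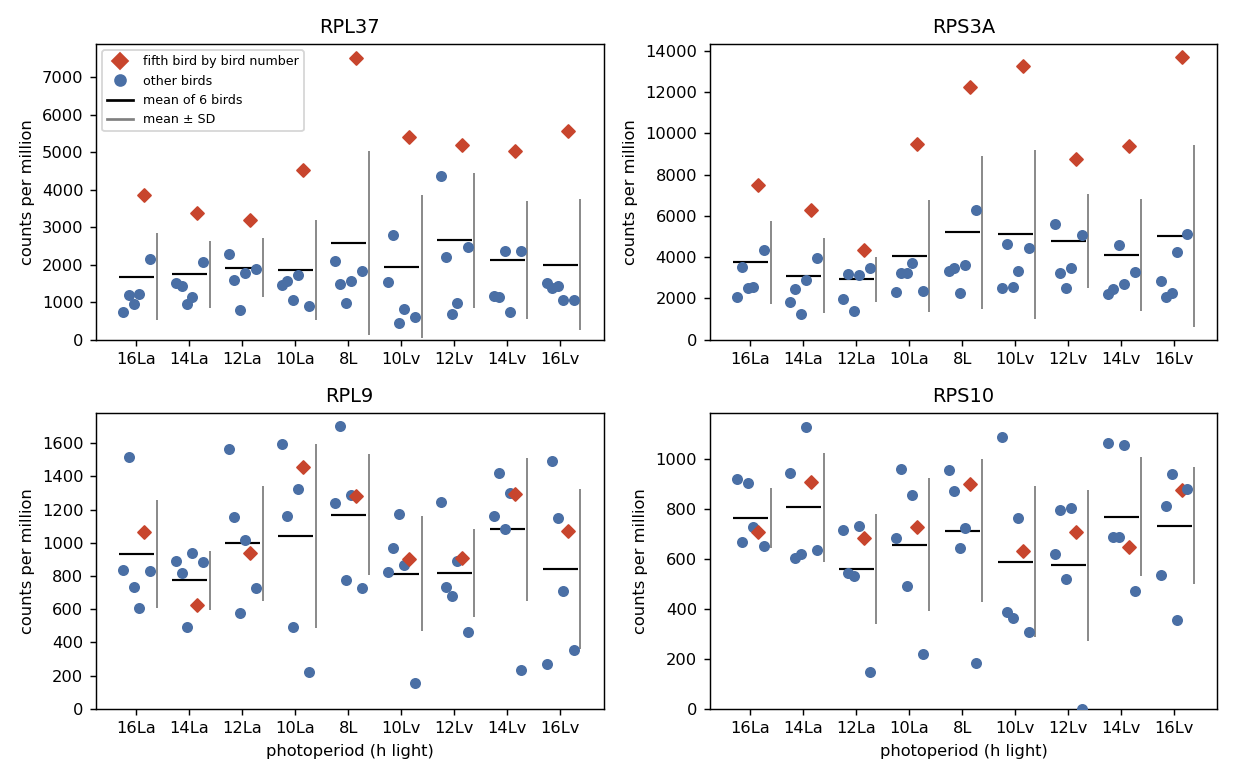
Level in CPM (vertical axes) of RPL37, RPS3A, RPL9 and RPS10 in every bird by photoperiod; symbols and lines are as in the plot of library shares. The fifth bird lies above all others at each photoperiod for RPL37 and RPS3A, and among the others for RPL9 and RPS10.

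The first photoperiod question was whether any member differed anywhere in the cycle. Levels were tested with edgeR's quasi-likelihood F-test over all 54 birds, with Benjamini-Hochberg adjustment over the 1460 genes that passed the filter on low counts. Of the 75 members 74 were tested, and RPS27L, with 70 counts in 37 birds, was not. No member passed the threshold of 0.05 for any difference among photoperiods, where 1.23% of all tested genes did. None had an unadjusted p under 0.05 in that test, against 5.48% of all genes. The lowest unadjusted p was that of RPS26, at 0.0892 (edgeR). CGA, the shared alpha subunit of the glycoprotein hormones, was called in the same fit with an adjusted p of 2.28e-16.

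RPS26, a small-subunit protein at the mRNA exit channel, had a lowest, median and highest level of 642, 871 and 1240 CPM at 16La and of 221, 501 and 960 at 10La. It had 235, 976 and 1559 at 14Lv. Its group means ran from 528 at 10La to 973 at 14Lv, and the ranges of all 3 groups overlapped.

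The second question was whether levels followed day length itself. On a linear contrast over hours of light 0 of 74 members passed, beside 0.616% of all genes. The slopes ran from -0.06 to 0.10 on the log2 scale per hour of light. Their median was 0.007 and that of all genes 0.001. The 95% interval lay within a 2-fold change per hour for all 74. That bound is loose, because a change per hour compounds over the range from 8 h to 16 h. It does not show that levels were flat. RPL22L1, a paralog of RPL22, had the highest slope at 0.10 ± 0.05 (SE; edgeR adjusted p = 0.761). RPL39, a small protein at the peptide exit tunnel, followed at 0.07 ± 0.03 (edgeR adjusted p = 0.782). These were the 2 members with an unadjusted p under 0.05, against 6.30% of all genes.

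RPL39 had a lowest, median and highest level of 396, 611 and 842 CPM at 16La, of 122, 530 and 688 at 8L, and of 0, 697 and 1055 at 16Lv. The 3 ranges overlapped, and the 0 came from a single bird at 16Lv. Of the negative slopes the smallest p-values were those of RPL27A, at -0.05 ± 0.03, and RPS27A, a ubiquitin and ribosomal protein fusion, at -0.04 ± 0.03 (edgeR adjusted p = 0.933 and 0.981).

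**Figure D5:**
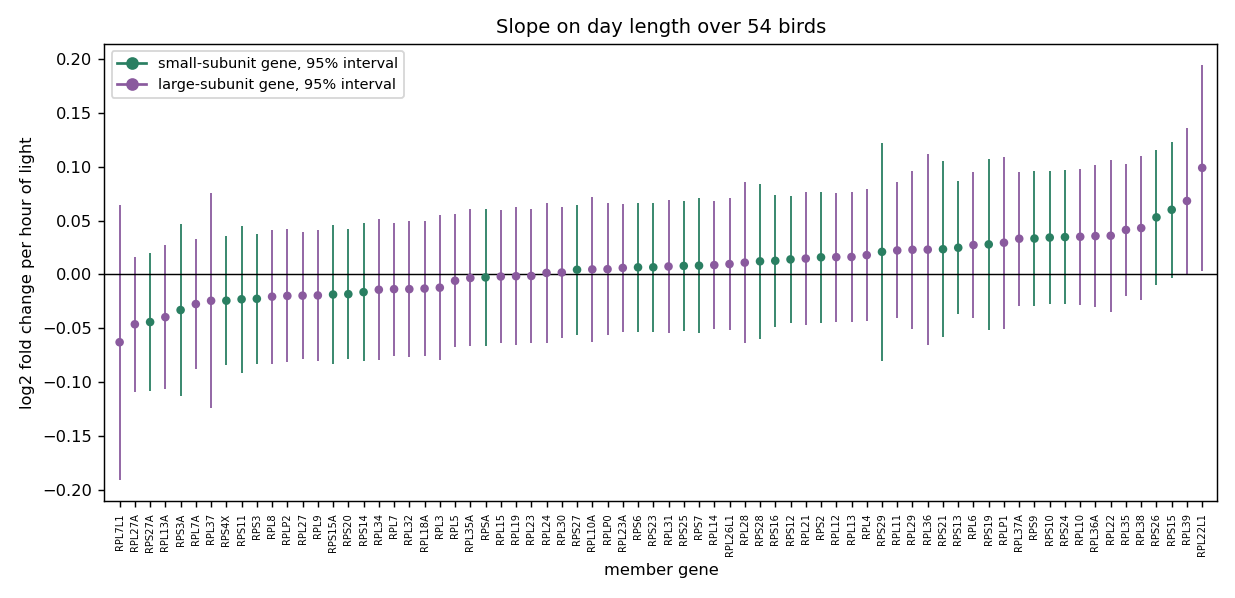
Fitted log2 change per hour of light for 72 tested members over 54 birds (vertical axis), with 95% intervals as lines; green marks small-subunit and purple large-subunit genes. The slopes lie between -0.06 and 0.10, and the intervals of all but RPL22L1 and RPL39 include 0.

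The third question was whether the 2 arms of the cycle differed at equal day lengths. Between the mean of the 4 spring and the mean of the 4 autumn photoperiods 0 of 74 members passed, and 0% of all genes did. At an unadjusted p under 0.05 there were 8 members (10.8%), all lower in spring, against 8.22% of all genes. They were RPS2, RPL23, RPLP2, RPL29, RPS24, RPL36A, RPS12 and RPL37A. Time in the study cannot be told apart from the arm, and library totals were lower in spring. The median member lay at -0.14 and the median gene at -0.16. The difference between the 2 slopes gave 0 of 74 members and 0% of all genes. At an unadjusted p under 0.05 it had 2 members (2.70%), against 5.41% of all genes.

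RPS2, a small-subunit protein at the mRNA entry channel, had the smallest unadjusted p. Its lowest, median and highest levels were 509, 796 and 1093 CPM at 16La and 471, 823 and 1065 at 14La. In spring they were 452, 576 and 773 at 10Lv and 623, 770 and 1067 at 16Lv. The groups overlapped. The log2 difference was -0.45 ± 0.17 (SE), with an edgeR adjusted p of 0.444, the lowest of any member in any comparison.

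RPL23, a large-subunit protein known for its binding to MDM2, had 905, 1384 and 2702 CPM at 16La, 664, 1175 and 1616 at 14La, 610.7, 1023 and 1443 at 10Lv and 307, 988 and 1776 at 12Lv. Again the groups overlapped, and its log2 difference was -0.43 ± 0.17 (SE; edgeR adjusted p = 0.501). RPLP2, RPL29 and RPS24 followed with -0.39 ± 0.18, -0.46 ± 0.21 and -0.38 ± 0.18. Of the members with the highest estimates, RPS3A stood at 0.22 ± 0.22 and RPS27A at 0.20 ± 0.18.

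The remaining comparisons were of 2 photoperiods each, and no member passed in any of them. The shortest day against the start of the cycle, 8L minus 16La, gave 0 of 74 beside 0.479% of all genes. The return to long days gave 0 beside 0.205% for 16Lv minus 8L, and the ends of the cycle gave 0 beside 0.0685% for 16Lv minus 16La. At matched day lengths the background was 0.137% at 14 h, 0.548% at 12 h and 0% at 10 h. Among the 8 successive steps it was 0.479% for 12La minus 14La, 0.205% for 12Lv minus 10Lv and 0% for the other 6. In each of these the count of members was 0.

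Over the 18 comparisons 20 member values had an unadjusted p under 0.05, in 15 members, and 7 comparisons had none. The share of all genes under 0.05 ran from 1.78% (8L minus 10La) to 8.22% (between the arms). The members' share was below that of all genes in each comparison except the one between the arms. DESeq2 and limma also called 0 members in each comparison they were run on, but the share of all genes they called was not kept. The precision of these comparisons differs. Between 2 photoperiods the median SE was 0.33 to 0.38 on the log2 scale, and the 95% interval lay within a 2-fold change for 38 (10Lv minus 10La) to 63 (14La minus 16La) of 74 members. For 8L minus 16La it did so for 53. Between the arms it did so for 73. Changes smaller than these intervals were not detectable in these comparisons.

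Relative to the median of all tested genes, the median member lay from -0.18 (12La minus 14La) to 0.20 (10La minus 12La) on the log2 scale. Another scaling moved the median of all genes by up to 0.16, so signs of single members near 0 are relative to that. The group means of a member differed by a factor of 1.15 to 4.51 (RPL7L1), with a median of 1.53, and 71 of 75 members stayed under a factor of 2. The highest mean fell at 8L for 19 members and at 16Lv for 14, and the lowest fell at 12La for 20 and at 8L for 0. These are counts of means that the fifth bird of a group enters.

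The fitted log2 difference of the fifth birds was above 0 for each stalk gene, at 0.52 for RPLP0, the base of the stalk, 0.78 for RPLP2 and 1.43 for RPLP1. The fifth bird was the highest at 4 photoperiods for RPLP0, 8 for RPLP2 and 9 for RPLP1. Across photoperiods RPLP0 had group means from 869 ± 259 at 10La to 1209 ± 383 at 12Lv (SD, n = 6), and RPLP2 from 984 ± 492 at 16Lv to 1357 ± 567 at 12Lv. RPSA, a small-subunit protein that is also known as the laminin receptor, ran from 789 ± 341 at 12La to 1508 ± 1042 at 16Lv.

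Paralogs and their parent genes can share reads where their sequences are alike, so their levels are uncertain. RPL22L1 had 238 counts in 47 birds, with a lowest, median and highest level of 178, 233 and 354 CPM at 16La, 0, 109 and 253 at 12La and 81.1, 173 and 706 at 14Lv. Its parent RPL22 had 548 counts in 52 birds. RPL7L1, a relative of RPL7 that works in ribosome assembly, had 122 counts in 41 birds and was at 0 in 4 of 6 birds at 16Lv, and RPL7 had 1048 counts in 53. RPS27L had 70 counts in 37 birds and RPS27 1423 in 54. RPL26L1 had 1253 counts and was seen in all 54 birds. No RPL26 was among the members, so no parent gene stands beside RPL26L1.

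RPL7L1 gave the largest fitted change between 2 photoperiods among the smallest-p members, -1.86 ± 0.83 (SE) for 16Lv minus 14Lv (edgeR adjusted p = 0.999). At 14Lv its lowest, median and highest levels were 0, 131 and 228 CPM, and at 16Lv 0, 0 and 125. These levels rest on a few reads per bird.

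The fitted spread between birds of a photoperiod was set beside that of 89 other genes. These lay at or above the 5th percentile of member levels, with no upper limit, so they are not matched to the members in level. The median biological coefficient of variation of the members was 0.344, and that of the 89 other genes was 0.345. The fit draws these values toward a trend with level that the members help to set, so alike medians are partly built in. Single members ran from 0.304 to 0.650, with RPS29 at 0.650 and RPL37 at 0.635, and the 89 other genes from 0.305 to 0.874.

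Genes of the wider translation machinery were tested in the same fits. Of the 5 ribosome partners, 30 translation factors, 18 mitochondrial ribosomal proteins and 2 ribosome biogenesis genes tested, 0 passed in any of the 18 comparisons. EEF1A1, the elongation factor that delivers transfer RNA, changed by -0.002 ± 0.032 (log2, SE) for each hour of light, and EEF2, the translocation factor, -0.001 ± 0.042. None of the 11 genes of the list for control of ribosomal protein mRNA translation, such as LARP1 and MTOR, had enough counts to be tested.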

How the data were processed

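Direct cDNA libraries of 54 pituitaries were read from 2 deposited tables. Estimated counts per transcript were deposited by the authors, who list minimap2 2.17, edgeR 3.24.3 and Salmon 0.14.2 (per the submitters' processing notes). The role of each tool, the genome build and the strand setting were not given in the sources used here. A deposited CPM table, in effect a normalised signal per gene, equalled each gene's summed CPM times a factor of 0.327 to 1.79 per bird. It was used in 1 alternative, as log2 of the signal plus 1. All 83 member transcripts matched the gene table of Coturnix japonica 2.1 by accession. Member sequences are not analysed here.

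A gene's level was the largest of its transcript counts, rounded. Among 9983 values of 2-transcript genes with at least 3 counts, 5354 were the same for both transcripts within 0.01, and sums over transcripts came to 2.08 times the largest count. Of the 75 members 69 have 1 transcript. No 2 libraries were identical.

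Tests used edgeR 4.0.16 in R 4.3.3 (quasi-likelihood F-test, robust, TMM, filterByExpr with a minimum count of 3), with 1 mean per photoperiod, 45 residual degrees of freedom and Benjamini-Hochberg adjustment over 1460 genes. Each SE is the absolute log2 difference over the root of its F. The code was tested on simulated data. Alternatives were RLE scaling, other filters, DESeq2 1.42.0, limma 3.58.1, summed counts, a depth covariate, fits of 2 groups only and leaving out birds. Terms and exclusions by bird number were chosen after seeing the data. Groups come from the treatment label, and p-values set a difference against the spread between birds, each with 1 library.

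The members, lists and tests were chosen with earlier results of these data known. Named genes are the 10 highest and 5 lowest by level, 5 per direction by p for the slope and the arms, 5 for any difference, the smallest p elsewhere, paralogs with their parents, the stalk genes, RPSA and RPS27A. RPS21, RPL9, RPS10, RPL24, RPL6, RPL32, RPS12, RPL37A and the non-members named fall outside the rule and were chosen after their values were seen. A few genes are not reported here by name and not drawn, and they stay in all counts and medians.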

Additional observations from a re-analysis of the deposited data

Results flagged for a closer look

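A bird was marked where its gap to the nearest other bird of its photoperiod, divided by the range of the 6, exceeded 0.625. Chance marks about 1 in 20 groups where groups are independent. Here the 4 quantities come from the same counts, so 1 bird can be marked several times. The counts of marks below are therefore not set against that rate. Of 36 groups (4 quantities at 9 photoperiods) 10 were marked, and 9 of these marks fell on the fifth bird by bird number. For the share of all members they were 8L replicate 5 at 15.2%, 14Lv replicate 5 at 13.5% and 16Lv replicate 2 at 15.8%. For the small-subunit share they were 8L replicate 5 at 7.83%, 10Lv replicate 5 at 7.30%, 14Lv replicate 5 at 6.72% and 16Lv replicate 2 at 8.44%. For the large-subunit share they were 8L replicate 5 at 7.34% and 14Lv replicate 5 at 6.75%. The last mark was the small-subunit part of the members' counts in 12La replicate 6, a library with 819 genes detected, at 51.95% where the next bird had 47.2%. Among 675 groups of single members 83 were marked, and in 62 of them the fifth bird was the highest. These groups share libraries and are not independent either. Marks on the fifth bird are partly built in, because its place was chosen on the members' share. What the fifth birds shared was not tested.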

How the results depend on the processing

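No member was called under RLE scaling, a minimum count of 10, no filter, DESeq2, limma, summed counts, a depth covariate, fits of 2 groups only, without the 9 low-detection libraries, with bird rank as a term, without the fifth birds, or in any of 972 results that left out 1 bird (0 to 0 members per comparison). Without both the fifth and the low-detection birds 1 member was called between the arms, RPLP2 at -0.74 (edgeR adjusted p = 0.0273), and 1 at 14Lv minus 14La, RPL38 at -1.49 (edgeR adjusted p = 0.0490). The cause was not tested. The share of all genes called was not kept for any of these alternatives. Neither the counts of 0 nor these calls therefore have a background beside them. The share of the library was lower with summed counts, at 4.05%, 3.92%, 3.53%, 4.08%, 4.54%, 4.47%, 4.32%, 4.22% and 4.48% in the order of the cycle, because genes with many transcripts gain. It was higher without the 2 genes with the most counts in the total, at 11.9%, 11.3%, 11.5%, 12.5%, 13.6%, 13.3%, 13.4%, 11.9% and 12.8%. Of 35 named gene values, 16 of 392 results under other settings and 4 of 1890 without 1 bird changed sign, all in spring minus autumn estimates near 0. RPS27A, RPS3A, RPSA, RPL8 and RPS7 turned to -0.12, -0.061, -0.14, -0.10 and -0.13 with limma, and to -0.11, -0.26, -0.27, -0.17 and -0.24 without the fifth and low-detection birds. RPSA, RPL8 and RPS7 were at -0.063, -0.11 and -0.10 with no filter, and at -0.13, -0.11 and -0.018 without the fifth birds. Leaving out 1 bird gave -0.037 to 0.22 for RPSA, -0.013 to 0.18 for RPL8 and -0.018 to 0.18 for RPS7. Replicate numbers follow the order of deposition and pair no birds, and the place in the order of bird numbers, used as a replicate block, gave 0 members.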
